A study of Mus musculus with 4 samples.

Results

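The 6 GATA transcription factor genes of the mouse (Gata1, Gata2, Gata3, Gata4, Gata5 and Gata6) and the genes of their FOG cofactors (Zfpm1 and Zfpm2) were examined for open chromatin in 3T3-L1 cells. These 8 of 21911 protein-coding genes were taken by symbol from the GENCODE M21 annotation, and every site that met the gene body or the 50 kb on either side of it was counted. The windows held 233 of 298793 peaks and 195 of 247031 hotspots of biosample 1, and 74 of 97430 peaks and 69 of 88636 hotspots of biosample 2. 3T3-L1 is an immortalized line of mouse embryo fibroblasts that can be driven to become fat cells, labelled as of strain C57BL/6J with unknown age and no sex recorded, and no treatment is named. DNase-seq cuts nuclear DNA with DNase I, which reaches DNA most readily where no nucleosome covers it, and sequences the ends. The study made 4 libraries, 2 from each of 2 biosamples, and the authors pooled both libraries of a biosample before calling sites, so there is 1 list for each biosample. The labels number the 2 biosamples as biological replicates 1 and 2, and the libraries within each as technical replicates. They do not say whether the biosamples are separate cultures, and what differs between them could be technical.

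A peak is a window of at most 150 bp and a hotspot is a wider region of raised cutting. Each peak carries a score of the authors, whose definition is not given in the sources used here, so a score is read only as a percentile of its own list. The lists hold no read counts, so the depth is unknown, and a site missing from a list is one that did not reach the authors' threshold there. With 1 pooled list for each biosample, the spread between the libraries of a biosample is unknown and no test was possible. Shares are given with 95% Wilson intervals, which cover counting error only. The cell type label was checked on promoters of marker genes: all 6 fibroblast markers (Vim, Col1a1, Col1a2, Thy1, Pdgfrb and S100a4) were open in both lists, against 0 of 4 blood, 0 of 3 T cell, 1 of 4 cardiomyocyte and 2 of 4 endothelial markers. Of all protein-coding genes 53.7% were open in both lists, so the endothelial count is near the share of all genes.

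GATA factors are zinc finger proteins that bind DNA around the letters GATA. GATA1, GATA2 and GATA3 are best known from blood cells, and GATA4, GATA5 and GATA6 from heart, gut and other endoderm-derived organs. FOG1 (Zfpm1) and FOG2 (Zfpm2) do not bind the motif themselves but grip the amino-terminal finger of GATA proteins and bring in corepressors such as the NuRD complex and CtBP. In mouse white fat precursors GATA2 and GATA3 are known to hold cells back from fat cell formation, in part through the Pparg gene and C/EBP proteins.

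The sequences that follow are those the results return to: for 6 of the 8 genes the strongest site in biosample 1 that lay over 1 kb from any start site, and for Gata2 also its intron sites. They were read from GRCm38.p6, whose chromosomes are those of mm10, on the strand of the gene, 5′ to 3′. Capitals mark AP-1 letters (TGANTCA), the letters that GATA factors bind (AGATAA, also with T in the first place, G in the last place or both, on either strand), TEAD letters (CATTCCA, also with T in the last place) and, in the Gata2 pair, an E-box (CATCTG) followed by a GATA word.
Gata2 19 kb upstream site, chr6:88174776-88174925 (plus strand): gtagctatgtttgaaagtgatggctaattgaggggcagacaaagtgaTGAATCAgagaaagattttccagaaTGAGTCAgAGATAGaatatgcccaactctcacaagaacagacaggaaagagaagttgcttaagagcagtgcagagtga
Gata2 first intron site, chr6:88203416-88203565 (plus strand): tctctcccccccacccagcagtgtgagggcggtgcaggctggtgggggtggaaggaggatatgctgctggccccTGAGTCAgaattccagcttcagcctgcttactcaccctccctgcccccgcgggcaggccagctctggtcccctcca
Gata2 second intron site, chr6:88204116-88204265 (plus strand): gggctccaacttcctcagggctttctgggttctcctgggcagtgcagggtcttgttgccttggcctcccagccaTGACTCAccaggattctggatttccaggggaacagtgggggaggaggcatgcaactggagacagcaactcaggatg
Gata2 E-box and GATA pair, chr6:88203185-88203204 (plus strand): CATCTGcagccggtAGATAA
Gata3 site upstream of the inner start, chr2:9879636-9879785 (minus strand): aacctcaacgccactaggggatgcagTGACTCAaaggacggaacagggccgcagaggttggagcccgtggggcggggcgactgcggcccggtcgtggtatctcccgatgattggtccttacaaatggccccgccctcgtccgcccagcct
Gata1 22.7 kb upstream site, chrX:8000656-8000805 (minus strand): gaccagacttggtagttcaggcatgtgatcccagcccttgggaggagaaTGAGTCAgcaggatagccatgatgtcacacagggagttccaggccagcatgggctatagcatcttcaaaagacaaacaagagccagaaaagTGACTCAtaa
Gata4 37.5 kb upstream site, chr14:63309096-63309245 (minus strand): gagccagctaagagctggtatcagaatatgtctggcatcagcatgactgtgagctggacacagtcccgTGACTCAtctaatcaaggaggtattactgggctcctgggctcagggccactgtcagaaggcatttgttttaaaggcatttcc
Zfpm1 intron site, chr8:122294356-122294505 (plus strand): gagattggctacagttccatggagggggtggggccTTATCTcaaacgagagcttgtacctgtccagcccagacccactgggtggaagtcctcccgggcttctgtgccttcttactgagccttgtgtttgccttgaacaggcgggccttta
Zfpm2 intron site, chr15:40824436-40824585 (plus strand): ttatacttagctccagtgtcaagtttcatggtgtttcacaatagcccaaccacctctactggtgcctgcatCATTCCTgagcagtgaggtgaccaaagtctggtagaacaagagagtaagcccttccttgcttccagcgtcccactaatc
AP-1 letters stand in 6 of the 8 peak windows shown, and GATA letters in the Gata2 upstream site, where they follow an AP-1 word, and in the Zfpm1 intron site. The windows were picked, so the count is no measure of the loci. Of all biosample 1 peaks over 1 kb from a start site, 24.7% held AP-1 letters, and 35.0% of those above the 75 percentile of score. Of the strongest such sites not shown, that of Gata5 holds no AP-1 word and that of Gata6 holds 2.

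Promoters were open at 6 of the 8 genes in both lists: Gata2, Gata3, Gata4, Gata6, Zfpm1 and Zfpm2 had a peak of each list within 1000 bp of one of their own start sites. By the same rule 53.7% of all protein-coding genes were open in both lists, 65.0% in biosample 1 and 53.9% in biosample 2. Gata1, the master regulator of red cells and platelets, and Gata5, a factor of heart valve and endoderm development, had neither a peak nor a hotspot within 1000 bp of any start site in either list. Their gene bodies held no peak at all, whereas 76.3% of protein-coding genes held at least 1 peak of biosample 1 and 63.8% at least 1 of biosample 2 in the gene body. Those shares cover genes of every length and include peaks at their starts, so they are not matched to Gata1 and Gata5.

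The open promoters of the GATA genes ranked low among open promoters. Ranked by its strongest promoter peak among the 11775 genes open in both lists, Gata4 stood at the 4.3 percentile in biosample 1 and the 6.0 percentile in biosample 2, and Gata3 at 10.4 and 9.5. Gata2 stood at 28.7 and 19.6, Zfpm2 at 30.8 and 19.6, and Gata6 at 32.9 and 37.9. Zfpm1 was the exception, at 64.3 in biosample 1 and 89.2 in biosample 2. Each of the other open members was therefore below the middle of the open genes in both lists. For Gata3 this rests on the 1000 bp window. A peak centred 1110 bp upstream of its inner start reached percentile 97.2 in biosample 1 and 92.1 in biosample 2. The medians of open genes were 95.5 and 85.7. Ranks with a wider window were not computed.

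**Figure D1:**
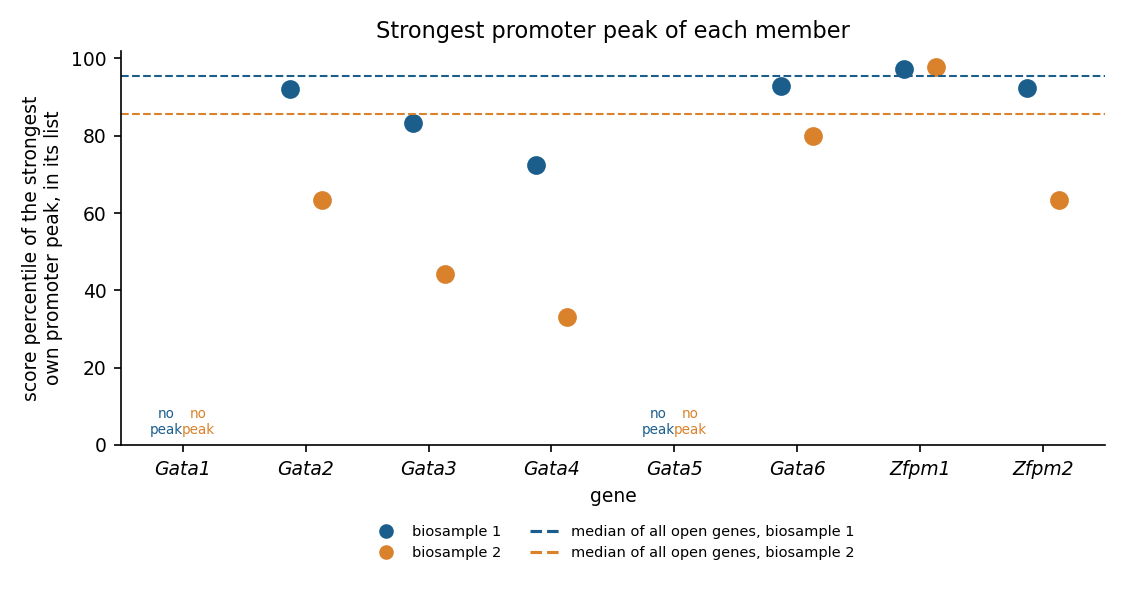
Score percentile, within the list of its biosample, of the strongest peak within 1000 bp of any own start site (vertical axis) for each gene (horizontal axis), with dashed lines at the median of the 11775 genes open in both lists. Zfpm1 alone lies above both medians, which are 95.5 in biosample 1 and 85.7 in biosample 2, and Gata1 and Gata5 have no such peak. A stronger Gata3 peak just outside the 1000 bp window is left out.

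Gata2, the stem and progenitor cell GATA factor that also marks fat precursors, lies at chr6:88193891-88207032 on the plus strand. Its most upstream start site had no peak in either list. The peak of the promoter lay at the second start, 4443 bp further in, where chr6:88198556-88198705 scored 128 in biosample 1 (percentile 92.0) and was met by a peak scoring 41 in biosample 2 (percentile 63.5). It carries an E-box (CAGCTG) and lies in an exon, in the widest hotspot of the locus in biosample 1, 1523 bp. The Gata2 locus was thus open at its inner start in both lists and at its outer start in neither.

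A pair of further peaks lay inside Gata2, 9.6 and 10.3 kb from its first start. The rule counts them as promoter sites because an annotated retained-intron transcript starts just downstream of them, at 88204445. The first scored 124 in biosample 1 (percentile 90.1) and 39 in biosample 2 (percentile 60.5), and the second scored 111 (percentile 83.4) and 19 (percentile 18.6). Each holds 1 AP-1 word, and in both windows of biosample 1 it begins at base 75, in the middle, as printed above.

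An E-box followed by a GATA word with 6 to 10 letters between them occurs once in the Gata2 window, at chr6:88203185-88203204, 9303 bp from the first start and inside the gene. An intronic enhancer of Gata2 with such a pair is known from mouse blood stem and progenitor cells. No peak of either list covered the pair, although a hotspot of each list did, in biosample 2 a hotspot of 477 bp at chr6:88203147-88203623. The nearest peak of biosample 1 was the first intron site, whose window began after 211 bases and was centred on the AP-1 word instead. Over the whole lists the same letters were held by 51 of 298212 peaks of biosample 1 (0.0171%) and 17 of 97260 peaks of biosample 2 (0.0175%). The pair also occurs at 2 places in the Zfpm2 window and 1 in the Gata6 window, none of them in a peak or a hotspot of either list.

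Gata3, the factor of T helper cells, breast epithelium and fat precursors, lies at chr2:9857078-9890034 on the minus strand. Its open promoter was the inner coding start at 9878600, with 3 peaks of biosample 1, the strongest scoring 111 (percentile 83.4), and 1 of biosample 2, scoring 30 (percentile 44.2). The outermost start at 9890034 had a single weak peak of biosample 1, scoring 47 (percentile 25.9), and none of biosample 2. The strongest site of the whole locus lay just outside the promoter window, 1110 bp upstream of the inner start: chr2:9879636-9879785 scored 140 in biosample 1 (percentile 97.2) and 73 in biosample 2 (percentile 92.1). That site, counted as distal, ranked above every promoter peak of Gata3 in both lists. It shares a hotspot of 2038 bp with the inner start in biosample 1.

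Gata4, the heart and gonad factor, lies at chr14:63198922-63271692 on the minus strand. Its first starts shared 1 peak, scoring 93 in biosample 1 (percentile 72.5) and 25 in biosample 2 (percentile 33.1), with an AP-1 word (TGAGTCA) in it. These are the lowest percentiles of the 6 open members in both lists. Of its inner starts, those near 63245248 had no peak, and the one at 63213607 had only a peak of biosample 1 that scored 34 (percentile 6.8). Gata4 was open at its outer starts alone in biosample 2.

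Gata6, a factor of gut, lung and heart, lies on chromosome 18 from 11052064 to 11085635. Its clustered starts carried 3 peaks of biosample 1, scoring 130, 119 and 92, and 2 of biosample 2, scoring 55 and 36. The strongest reached percentile 92.9 in biosample 1 and 80.0 in biosample 2, the highest of the GATA genes in both lists. They lay in 1 hotspot, 2168 bp wide in biosample 1 and 1526 bp in biosample 2. The noncoding 1010001N08Rik starts on the other strand at the same place, so these peaks cannot be given to 1 of the 2 transcripts. The rest of the Gata6 gene body held no peak of either list.

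Zfpm1, which encodes FOG1, the cofactor first known from red cell and platelet precursors, lies at chr8:122282141-122337251. Its promoter had peaks 551 bp and 211 bp upstream of the first start. The first scored 140 in biosample 1 (percentile 97.2) and 67 in biosample 2 (percentile 88.9), and the second scored 134 (percentile 94.7) and 90 (percentile 97.8). A further peak, 809 bp inside the gene, was in the list of biosample 1 only, with a score of 81. Inner noncoding starts had a peak 51.1 kb in, scoring 117 in biosample 1 and 41 in biosample 2. In both lists FOG1 thus had the strongest promoter of the 8 genes.

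Zfpm2, which encodes FOG2, the cofactor of GATA4 in heart and gonad, lies at chr15:40655035-41104592 and is by far the longest of the 8, with a gene body of 450 kb. Its promoter held 5 peaks of biosample 1, scoring 54, 94, 101, 92 and 129 in the order of transcription, inside and beside a hotspot of 2821 bp, the widest of all 8 loci. Only the last of them, centred 1015 bp inside the gene, was also met by a peak of biosample 2, which scored 41 (percentile 63.5). The peak over the first start itself, scoring 101 (percentile 77.6), had no counterpart. With a window of 500 bp in place of 1000 bp, Zfpm2 was open in biosample 1 only, and 5 of the 8 genes were open in both lists.

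**Figure D2:**
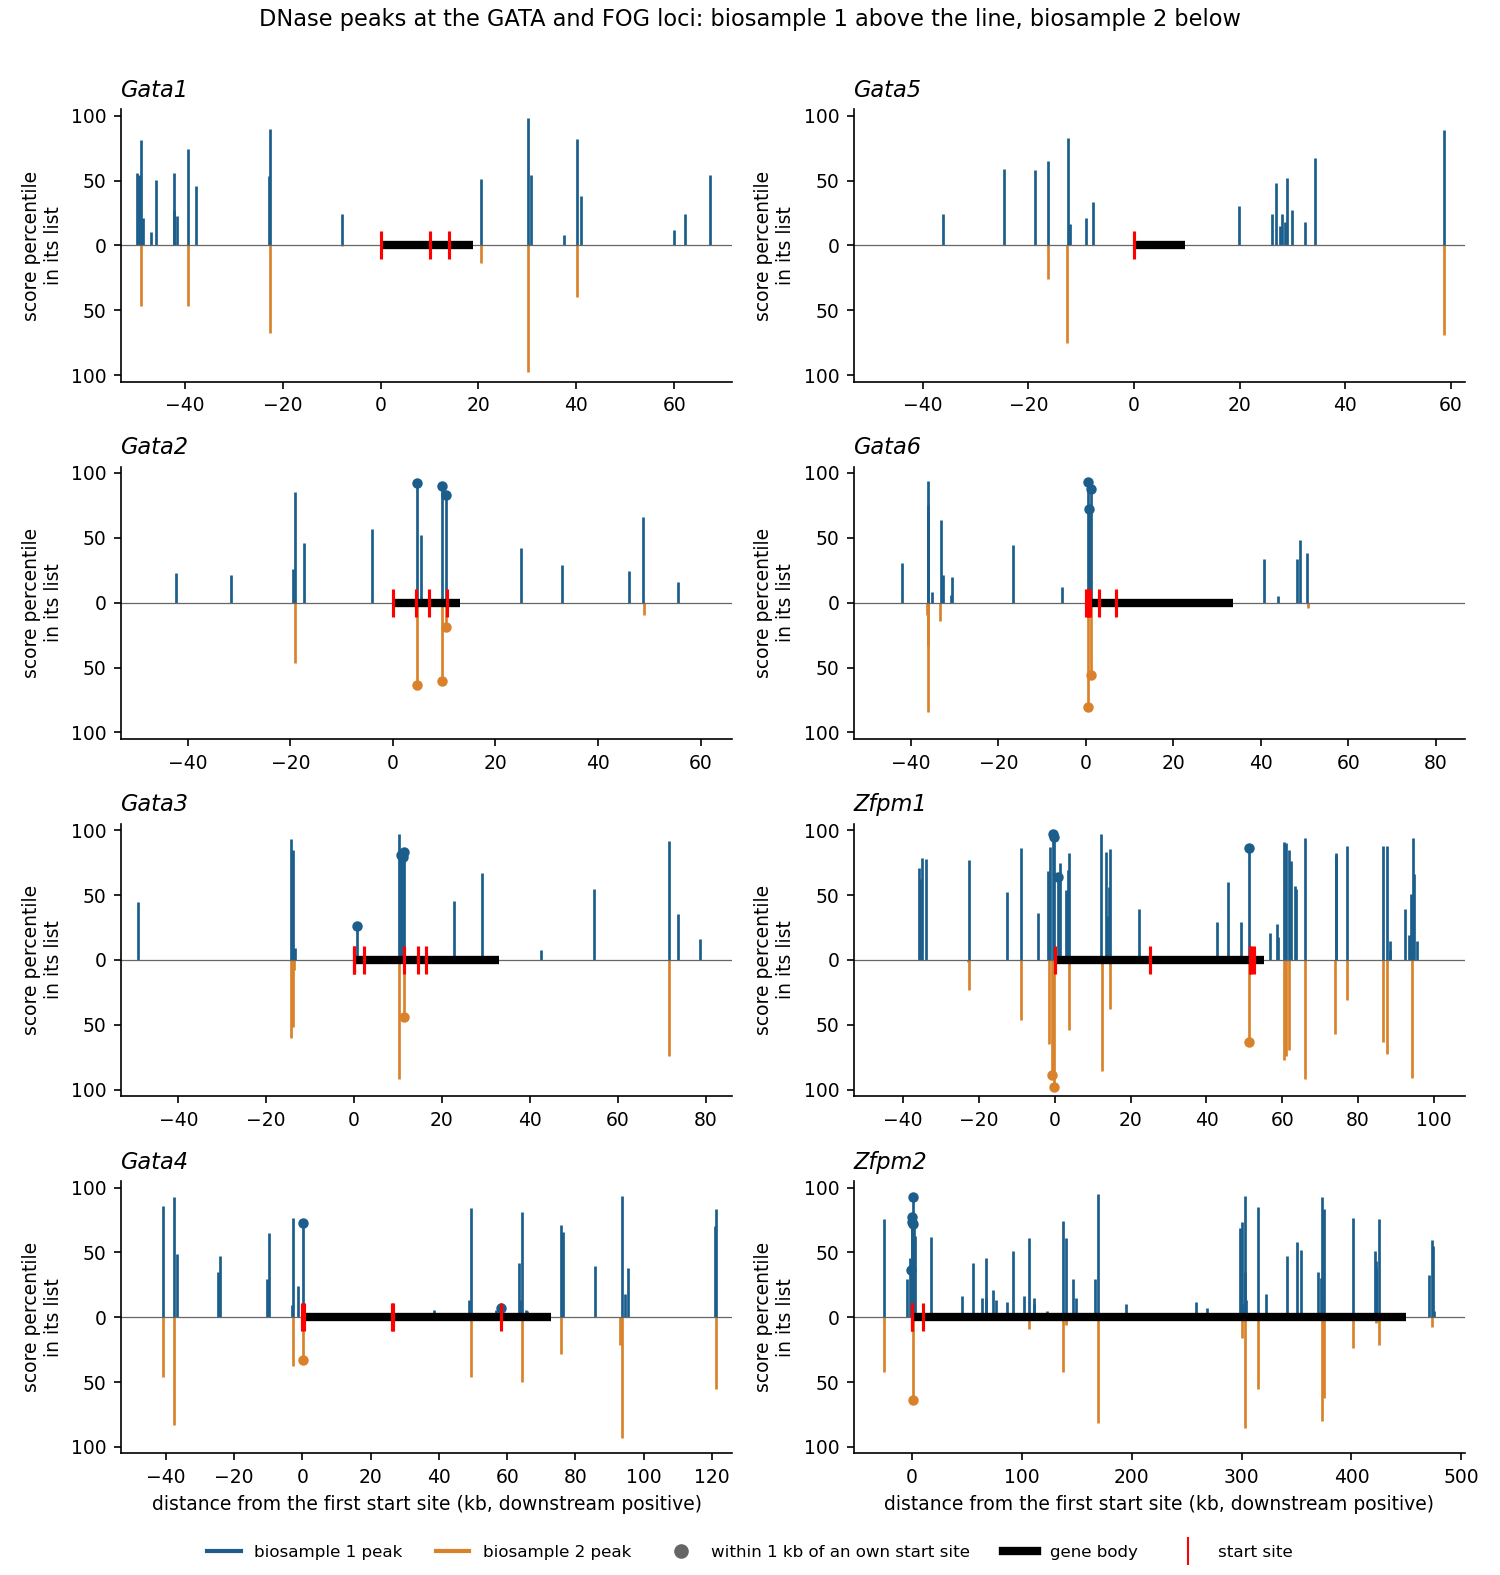
Peaks at each of the 8 loci by distance from the first start site in kb (horizontal axis) and score percentile within the list (vertical axis), biosample 1 above and biosample 2 below the line. Round heads mark peaks within 1 kb of an own start site, the black bar the gene body and red ticks the start sites; the bars of Gata1 and Gata5 carry no peak, and those of Zfpm1 and Zfpm2 carry peaks along the gene.

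Away from start sites, the 8 loci held 195 distal peaks in biosample 1 and 58 in biosample 2, over 1000 bp from a start of any gene. A further 17 and 5 peaks lay at starts of other genes. The strongest of these were at Hdac6, a deacetylase gene next to Gata1 (142, percentile 97.9, and 88, percentile 97.4), at Fdft1, the squalene synthase gene near Gata4 (132, percentile 93.8, and 75, percentile 93.0), and at Zc3h18 downstream of Zfpm1 (132, percentile 93.8, and 70, percentile 90.6). The Gata1 window was thus led by the promoter of a neighbour.

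Zfpm1 stood out by the density of distal peaks. It had 24.5 per 100 kb in biosample 1 and 9.67 in biosample 2, at the 91.9 and 96.2 percentile of the windows of all protein-coding genes, whose medians were 12.1 and 3.37. Hotspots covered 13.5% of its window in biosample 1 and 4.36% in biosample 2, at the 86.7 and 87.4 percentile. The other 7 loci had 9.03 to 17.3 distal peaks per 100 kb in biosample 1, between the 34.5 and 74.1 percentile, and 1.77 to 4.51 in biosample 2, between the 27.6 and 65.5 percentile. The density of Gata5 was the second highest of the 8 in biosample 1, at 17.3, and the order was not kept in biosample 2, where it had 2.74.

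**Figure D3:**
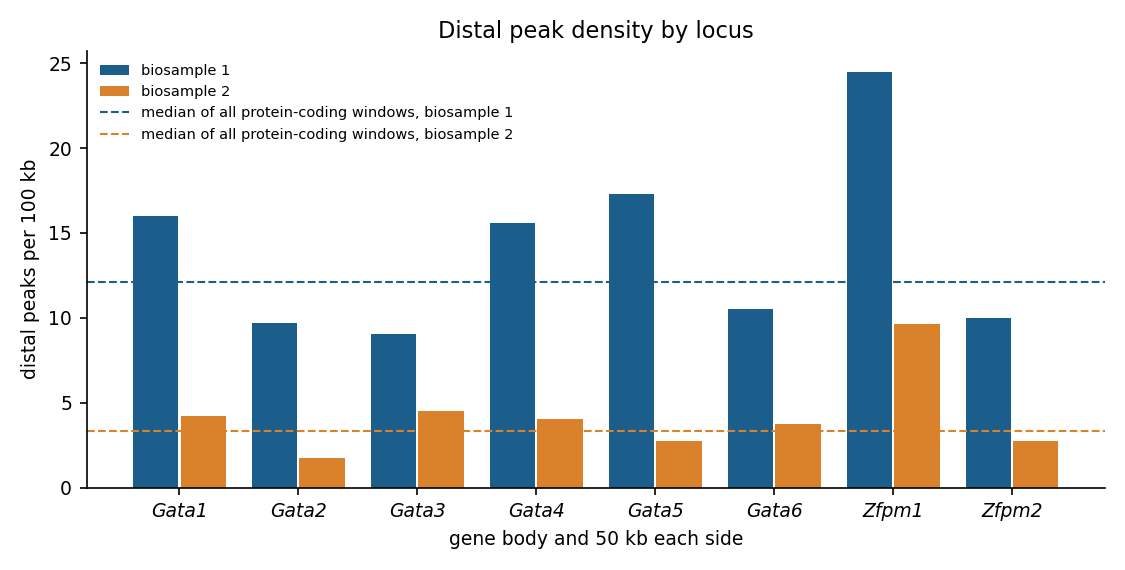
Distal peaks per 100 kb (vertical axis) in the gene body and 50 kb each side of each gene (horizontal axis), with dashed lines at the median of all protein-coding windows in each list. Zfpm1 has the highest bar in both lists, 24.5 in biosample 1 and 9.67 in biosample 2; bars of different lists are not comparable because the lists differ in length.

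The distal sites lay in different places from gene to gene, but the windows also differed in how much of them was gene body. The gene body made up 450 of 550 kb at Zfpm2, 72.8 of 173 kb at Gata4 and 55.1 of 155 kb at Zfpm1. At Gata6 it was 33.6 of 134 kb, at Gata1 18.8 of 119 kb and at Gata5 9.57 of 110 kb. The counts that follow are not matched for this. Of the 55 distal peaks of Zfpm2 in biosample 1, 47 lay in introns and 1 in an exon, and of the 15 in biosample 2, 13 were intronic. Gata4 had 11 of its 27 distal peaks of biosample 1 in introns, and Zfpm1 had 13 of 38. Gata1, Gata5 and Gata6 had none inside the gene: all their distal peaks, 19, 19 and 14 in biosample 1, were upstream or downstream. Gata1 and Gata5, the genes without a promoter peak, thus had open sites in their surroundings and none within.

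The strongest distal site of Gata1 and of Gata2 lay upstream of the gene, and that of Gata3 upstream of its inner start. For Gata1 the strongest was the 22.7 kb upstream site, with a score of 123 in biosample 1 (percentile 89.6) and 44 in biosample 2 (percentile 67.7). For Gata2 it was the 19 kb upstream site, with 115 in biosample 1 (percentile 85.6) and 31 in biosample 2 (percentile 46.3). Beside the site near its inner start, Gata3 had one 14.4 kb upstream, with 131 in biosample 1 (percentile 93.3) and 39 in biosample 2 (percentile 60.5), and one 71.7 kb downstream of the first start, with 127 (percentile 91.5) and 49 (percentile 73.9). All of these sites were in both lists.

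The factors of heart and endoderm also had strong upstream sites. Gata4 had one 37.5 kb upstream, with 129 in biosample 1 (percentile 92.4) and 59 in biosample 2 (percentile 83.4), both above the percentiles of its promoter. Gata6 had one 36.0 kb upstream, with 132 in biosample 1 (percentile 93.8) and 60 in biosample 2 (percentile 84.2), which also passed its promoter in both lists. Gata5 had one 58.7 kb downstream of its start, with 122 in biosample 1 (percentile 89.2) and 45 in biosample 2 (percentile 69.1), and one 12.6 kb upstream, with 110 (percentile 82.9) and 50 (percentile 74.9). In Gata3, Gata4 and Gata6, then, the strongest site that belonged to no other gene's start was distal by the 1000 bp rule. The Gata3 site was centred only 1110 bp from the inner start, and in biosample 1 it shared the hotspot of that start. At Gata6 the distal and promoter scores were close, 132 against 130 in biosample 1 and 60 against 55 in biosample 2.

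In biosample 1 the FOG genes had their strongest distal sites inside the gene. Zfpm1 had one 12.3 kb into the gene, with 139 in biosample 1 (percentile 96.8) and 62 in biosample 2 (percentile 85.7), below its promoter in both lists. A cluster followed beyond its 3′ end: sites 60.4, 61.0 and 65.9 kb from the start scored 125, 124 and 132 in biosample 1 and 52, 49 and 72 in biosample 2, and the first 2 of them lay in a hotspot of 2232 bp in biosample 1. In biosample 2 the 65.9 kb site (percentile 91.6) ranked above the intron site of Zfpm1. Zfpm2 had sites 169.5, 303.3 and 373.5 kb into the gene, with 135, 131 and 129 in biosample 1 and 57, 62 and 55 in biosample 2, all at or above percentile 80.0 in both lists. These intron sites of Zfpm2 ranked above its promoter in both lists, except that the 373.5 kb site tied with it in biosample 1.

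Whether a distal site was found in both lists went with its strength, much as elsewhere. Of the 195 distal peaks of biosample 1, 55 were met by a peak of biosample 2, a share of 28.2% (22.4 to 34.9), against 28.1% of distal peaks around all protein-coding genes. The share was 88.6% (76.0 to 95) for peaks above the 75 percentile of score and 1.69% (0.300 to 9.0) for peaks up to the 25 percentile, against 85.2% and 1.40% around all genes. Of the 58 distal peaks of biosample 2, 54 were met by a peak of biosample 1, a share of 93.1% (83.6 to 97.3), against 95.1% around all genes. The shares at the GATA and FOG loci were near those of all genes in both directions.

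Of the peaks at a start of any gene in the windows, 15 of 38 in biosample 1 were met by biosample 2, a share of 39.5% (25.6 to 55.3), against 42.5% around all protein-coding genes. In biosample 2 it was 15 of 16, 93.8% (71.7 to 98.9), against 90.0%. At the members' own starts alone, 11 of 21 peaks of biosample 1 and all 11 of biosample 2 were met. In all, 5 peaks of biosample 2 met no peak of biosample 1. They were weak: at Gata3 13.7 kb upstream (score 14) and 46.0 kb upstream, within Taf3 (score 4), at Fdft1 near Gata4 (score 20), at Gata6 36.3 kb upstream (score 15) and at Zfpm1 22.8 kb upstream (score 10). All but the one within Taf3 lay in a hotspot of biosample 1.

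**Figure D4:**
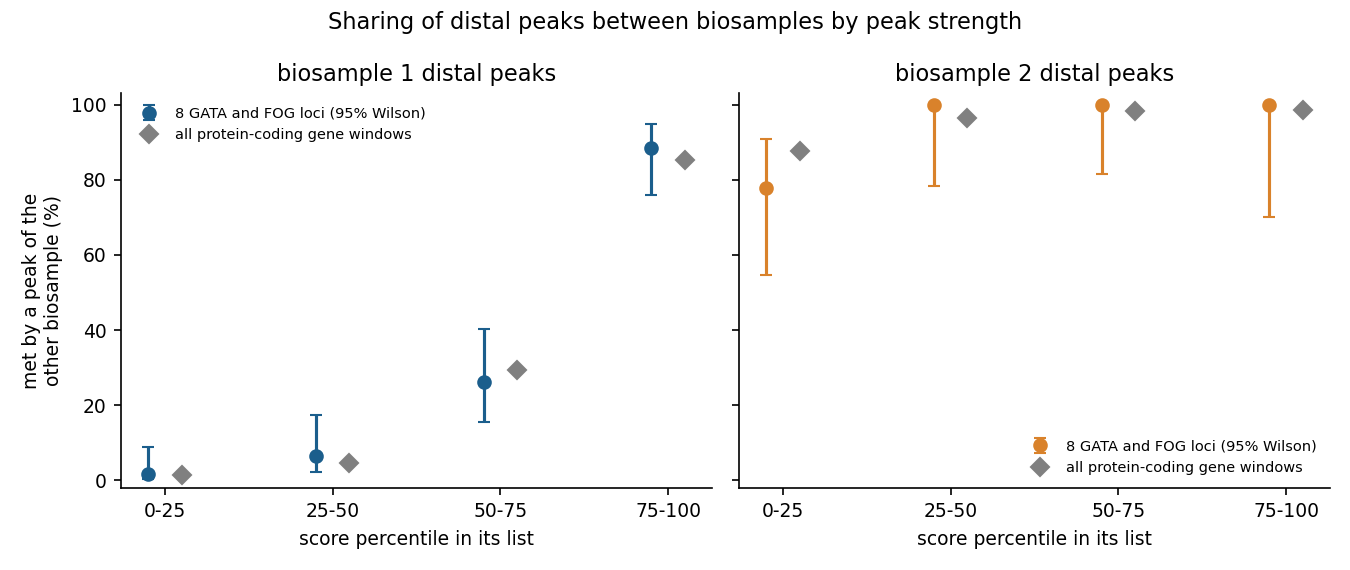
Share of distal peaks met by a peak of the other list (vertical axis, percent) by score percentile in the own list (horizontal axis), for the 8 loci with 95% Wilson intervals and for all protein-coding windows. In biosample 1 the share at the loci is 1.69% in the lowest band and 88.6% in the highest, near the values for all genes.

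GATA words were about as common at the GATA and FOG loci as elsewhere. In biosample 1, 40 of the 195 distal peaks held one, 20.5% (15.4 to 26.7), against 19.8% of all distal peaks of the list. In biosample 2 it was 14 of 58, 24.1% (15.0 to 36.5), against 19.1%. Counting promoter peaks too, the share in biosample 1 was 19.7% (15.1 to 25.3), against 18.7% of all peaks of the list. A match says only that the letters are present, and the lists do not show which factor was bound.

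AP-1 words, the binding letters of Fos and Jun dimers, had the largest shares of the 7 motifs at the loci. They stood in 67 of 195 distal peaks of biosample 1, 34.4% (28.1 to 41.3), against 24.7% of all distal peaks, and in 27 of 58 of biosample 2, 46.6% (34.3 to 59.2), against 31.8%. Both intervals lie above the value of the whole list, but no test was run, peaks of a locus lie close together, most of the peaks of biosample 2 are also among those of biosample 1, and several motifs were compared. Among distal peaks of biosample 1 up to the 25 percentile of score, 6 of 59 held the word, 10.2% (4.74 to 20.5), against 18.1% over the list. In the next bands, each 25 percentiles wide, it was 23 of 46 against 22.1%, 17 of 46 (37.0%) against 26.2%, and 21 of 44 (47.7%) against 35.0%. The list rose from band to band, whereas the loci had their highest share in the second band. In biosample 2 the counts were 7 of 18, 8 of 14, 6 of 17 and 6 of 9, against 26.4%, 29.8%, 32.0% and 42.0% over the list, and the loci again followed no steady order.

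Of the 5 strongest distal peaks of biosample 1 at each gene, 40 in all, 25 held an AP-1 word and 6 a GATA word, 4 of them both. Of the 40, 26 lay above the 75 percentile of score, where 35.0% of all distal peaks of the list held an AP-1 word and 17.4% a GATA word. An AP-1 word stood in all 5 at Gata3 and at Gata6, in 1 of 5 at Gata5 and in 1 of 5 at Zfpm2, numbers too small to compare the genes. The Gata6 site 36.0 kb upstream, like the Gata1 site printed above, holds a pair of AP-1 words. The word lay within 25 bp of the middle of the peak in 53.7% of the distal AP-1 peaks of the loci and in 51.9% of those of the whole list in biosample 1. Its placing at these loci was thus near that of the list.

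In percentage points the other motifs were nearer to the lists. RUNX letters (TGTGGT) stood in 22.1% of the distal peaks of the loci against 18.7% of the list in biosample 1, and in 24.1% against 18.9% in biosample 2. The E-box CAGCTG stood in 15.9% (11.4 to 21.7) against 11.3% in biosample 1, and in 15.5% (8.38 to 26.9) against 11.6% in biosample 2. The E-box CAGATG stood in 17.9% against 17.9% in biosample 1, and in 13.8% against 18.0% in biosample 2. Apart from CAGCTG in biosample 1, the value of the list lay within the interval of the loci for each of these. TEAD letters stood in 11.3% against 11.0% in biosample 1 and 12.1% against 12.0% in biosample 2, and the CTCF motif in 3.08% against 4.03% and 8.62% against 8.91%. All words were sought on both strands. TEAD letters, which the Hippo pathway factors bind, stood in the Zfpm2 intron sites at 169.5, 303.3 and 315.0 kb.

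**Figure D5:**
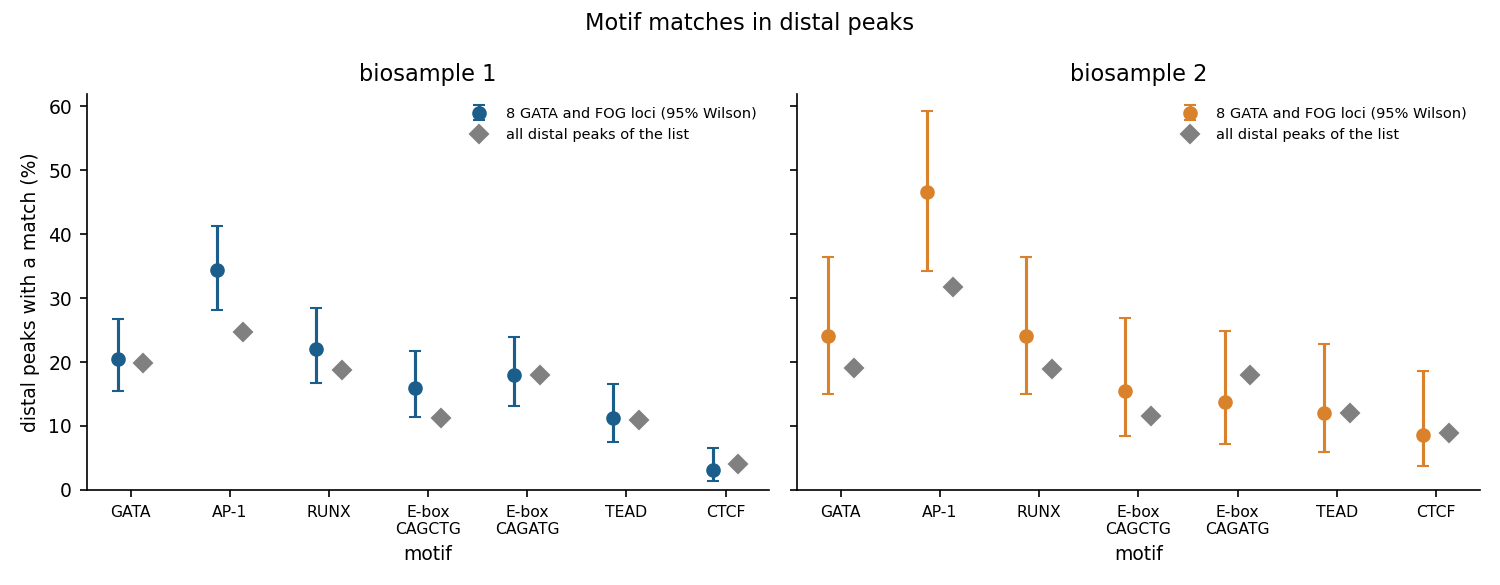
Share of distal peaks that hold each motif (vertical axis, percent) at the 8 loci, with 95% Wilson intervals, and over all distal peaks of the list, for biosample 1 (left) and biosample 2 (right). AP-1 is at 34.4% against 24.7% in biosample 1 and 46.6% against 31.8% in biosample 2, and GATA at 20.5% against 19.8% and 24.1% against 19.1%.

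The genes that work with the GATA and FOG proteins were read by the same promoter rule, beside the 53.7% of all genes open in both lists. Of 14 genes of the corepressor complexes that FOG proteins bring in, 13 were open in both lists, among them the NuRD subunit genes Gatad2a (150 in biosample 1 and 113 in biosample 2), Gatad2b (149 and 96) and Mbd3 (148 and 107), and Ctbp1 (142 and 62). Mta1, another NuRD subunit gene, was open in biosample 1 only. Of 4 other GATA-type zinc finger genes, Trps1, Gatad1 and Rere were open in both lists and Zglp1 in biosample 1 only. Corepressor promoters were thus open nearly throughout.

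Of the partners of GATA factors in blood, 4 of 11 were open in both lists. Ldb1, which bridges enhancers and promoters, Nfe2, Runx1 and Tcf3, the E protein that pairs with TAL1, were open in both. Klf1, Gfi1b, Spi1 and Fli1 were open in biosample 1 only. Tal1, its relative Lyl1 and Lmo2, whose products form with LDB1 the complex that binds the E-box and GATA pair in blood cells, had no promoter peak in either list. Among erythroid and mast cell targets of GATA factors, Epor was open in both lists and Kit in biosample 2 only, with a score of 11 (percentile 2.8), while Alas2, Slc4a1, Kel, Hba-a1, Cpa3 and Fcer1a were open in neither.

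Among 8 cardiac and gonadal partners of GATA4, Srf and Wt1 were open in both lists and Mef2c in biosample 1 only, while Nkx2-5, Tbx5, Tbx20, Hand2 and Nr5a1 were open in neither. Of the adipocyte genes that GATA2 and GATA3 act on, Pparg, the receptor that drives fat cell formation, was open in both lists (108 in biosample 1 and 30 in biosample 2, percentiles 81.7 and 44.2), as was Cebpb (125 and 37, percentiles 90.6 and 57.3). Cebpa, which acts later in the same course, was open in biosample 1 only. The Gata2, Gata3 and Pparg promoters were thus open in both lists, and by the 1000 bp rule all were below the median of open promoters. For Gata3 that place rests on the window, since a stronger peak lay just outside it.

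The promoter count rests on the choice of start sites and on weak peaks. With the most upstream start of each gene alone, 4 of the 8 genes were open in both lists, since Gata2 lost its peaks and Gata3 kept one in biosample 1 only. With the stronger 50% of each list, 4 were open in both, since Gata3 and Gata4 lost their peaks of biosample 2.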

How the data were processed

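DNase-seq peaks and hotspots of 3T3-L1 cells were used as deposited, in mm10. Per the labels, the authors aligned both libraries of each biosample together. Aligner, caller and versions are not given in the sources used here. Scores stand per peak in the deposited peak lists, and were used only as percentiles within their list (ties averaged). The deposited hotspot lists give a −log10 q value capped at 100, reached by 49.4% and 42.8% of hotspots in the lists of biosample 1 and 2, so hotspots were not ranked.

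Genes came from GENCODE M21, with 27 records that repeated a symbol on a chromosome merged. Every member was described, with its strongest promoter peak, its 5 strongest distal peaks of biosample 1, its widest hotspots and its unmatched peaks of biosample 2. Promoter meant within 1000 bp of a start site of any transcript type, own or other gene, and distal the rest. Overlap meant at least 1 bp. The readthrough record Gm20388, which spans the Zfpm1 window, was left out of location calls. Motifs were sought in GRCm38.p6, on chromosomes 1 to 19, X and Y. No test was run. Counts of the erythroid lists are not reported here. Members, partner lists and motifs were chosen with earlier results of these data known. Interval code was tested on simulated data. Python 3.11.15, numpy 2.4.6, pandas 2.3.3 and scipy 1.17.1 were used. Alternatives were other promoter windows, start sites, flanks, overlaps, motif forms, hotspots for peaks and the stronger 50% of each list.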

Additional observations from a re-analysis of the deposited data

How the results depend on the processing

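The distal counts follow the window and the threshold. In biosample 1 the 195 distal peaks became 321 with flanks of 100 kb, 76 in the gene body alone and 90 in the stronger 50% of the list. In biosample 2 the 58 became 95 with flanks of 100 kb, 37 with 20 kb, 19 in the gene body alone and 26 in the stronger 50%. The share of biosample 2 distal peaks met by biosample 1, 93.1%, was 98.3% against hotspots, 97.3% with flanks of 20 kb, and 100% both in the gene body alone and in the stronger 50%. The share of biosample 1 peaks with a GATA word, 19.7%, was 15.0% for GATAA alone and 34.8% in windows of 300 bp, against 18.7%, 14.6% and 37.8% over all peaks of the list, so in the wider window the loci were below the list. No paired analysis was possible because there is 1 pooled list for each biosample and no test. The unknown depth limits every statement about a missing site, and a shallower biosample would give a shorter list, so counts of the 2 lists cannot be compared.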
